A study of Mus musculus with 23 samples.

Results

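The 10 genes described here, Cdkn1a, Mdm2, Ccng1, Trp53inp1, Bax, Bbc3, Phlda3, Zmat3, Sesn1 and Sesn2, are well established transcriptional targets of the tumour suppressor p53. They were chosen by name out of 53607 gene rows, with earlier results of these data known and by no threshold on a measured value. All 10 were among the 20372 genes with enough counts to be tested. RNA was sequenced from 23 libraries of mouse embryonic stem cells in 8 groups, which combine an ERF label, a RAS label and a medium. All groups carry H-Ras-/- and N-Ras-/- alleles, a floxed allele of the remaining RAS gene and Ubiq-CreERT2, a tamoxifen-activated Cre recombinase made in all cells. Groups labelled RAS deleted received 4-hydroxytamoxifen for 6 days, and drug and deletion cannot be told apart here. Groups labelled ERF wild type or ERF knockout differ in ERF, a transcriptional repressor that the kinase ERK keeps inactive. Cells were kept in 2iL, which keeps them naive through PD0325901, CHIR99021 and LIF, or cultured for 48 hours in FA, with FGF2 and Activin A. Each of the 8 groups has 3 libraries, except for 2 in the FA group of ERF wild type with RAS present. The labels do not say whether replicates were separate cultures, so p-values measure only the spread between these libraries.

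p53 is a transcription factor that is kept low by Mdm2, a ubiquitin ligase that is itself a p53 target and so closes a feedback loop. DNA damage and other stresses release p53, which then binds paired half-sites in DNA and raises genes for cell cycle arrest, apoptosis, DNA repair and metabolic control. Embryonic stem cells make p53 at a high level, and its transcriptional activity in them is tied to differentiation as well as to damage.

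The libraries held 16.2 to 29.9 M counts each, of which a single noncoding row, Gm26917, took 17.6% to 27.9%, and every member had at least 279 counts in every library. Erf transcript, in CPM (counts scaled to a common library total), did not mark the knockout label: it was higher there in 2iL (96.1 to 171.7 CPM against 70.6 to 90.2 CPM), and the labels overlapped in FA (49.3 to 67.9 CPM against 56.5 to 74.4 CPM). The ERF genotypes are therefore named by their labels. Hras and Nras also had counts in every library (188 to 743 and 95 to 1121). In replicate 1 of each of the 4 ERF wild type groups, genes of chromosome 8 were 1.21 to 1.26 times as high as in the replicates of the same group, by the median gene. Outside chromosome 8 of the ERF wild type libraries, the largest such shift of any chromosome was 0.16 on the log2 scale. No member lies on chromosome 8, but these 4 libraries stand apart, and results that rest on them are also given without them. Of the marker lists, 5 of 6 fibroblast markers were under 1 TPM, a level scaled for transcript length, in every library, and the summed level of the 6 ran from 1.03 to 3.60 TPM against 77.6 to 1023 TPM for 8 naive markers.

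The p53 motif was looked for in the RefSeq promoter windows of GRCm38.p6, which run from 250 bases before to 50 after each gene start, 300 bases in all. Windows were held for 8 of the 10 members, and Trp53inp1 and Zmat3 were not matched. A full site was 2 half-sites of 10 bases each, with 0 or 1 base between them, both cores intact and at most 2 mismatches, on either strand. Cdkn1a and Bax held 1 each, in 2 of 12 member windows, against 105 of all 32851 windows (0.32%). The Cdkn1a site (chr17:29090928-29090947, plus strand) has 1 mismatch and lies 51 to 32 bases before the first of the 2 Cdkn1a starts, while the window of the other start held neither a full site nor a half-site. The Bax site (chr7:45467079-45467099, minus strand) has 2 mismatches and lies 201 to 181 bases before the start. They are shown as the full sites found among the members. The site is in capitals and 20 flanking bases on each side in lower case.
Cdkn1a: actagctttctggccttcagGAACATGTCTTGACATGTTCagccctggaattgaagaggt
Bax: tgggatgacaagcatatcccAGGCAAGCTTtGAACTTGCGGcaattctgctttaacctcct

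Perfect single half-sites, which are far more common (8.36% of all windows), were in 5 of 12 member windows. Those of Mdm2, Ccng1 and Sesn1 are shown as the half-sites of members without a full site, that of Sesn1 in 1 of its 2 windows. The windows of Phlda3, Bbc3 and Sesn2 held neither kind. The Phlda3 window ends in GAACATGT, which matches the start of a half-site, and the window edge cuts off the rest. Whether a whole half-site lies there could not be scored. The half-sites lie at chr10:117710935-117710944 (minus strand), chr11:40755462-40755471 (minus strand) and chr10:41887266-41887275 (plus strand). The half-site is in capitals.
Mdm2: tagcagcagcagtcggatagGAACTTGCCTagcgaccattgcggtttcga
Ccng1: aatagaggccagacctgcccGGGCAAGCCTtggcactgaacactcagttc
Sesn1: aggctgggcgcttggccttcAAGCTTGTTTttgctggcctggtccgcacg
A match describes letters and not binding, and p53 also binds in introns and far from gene starts, which these windows do not cover.

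Among the members, Bax had the highest level per transcript length, with a median of 120.0 TPM over 23 libraries, and Sesn1 the lowest, with 6.80 TPM. Mdm2, Ccng1 and Trp53inp1 had medians of 69.6, 66.6 and 72.8 TPM. Cdkn1a varied most between groups: its highest group mean, in CPM, was 3.66 times its lowest, against 2.47 times for Phlda3, 2.12 times for Sesn1 and 1.33 to 1.80 times for the other 7. The order of the group means differed from gene to gene. Mdm2 and Trp53inp1 were highest with ERF wild type and RAS deleted in FA, while Cdkn1a, Phlda3 and Sesn1 were highest in the same line in 2iL. In FA, Cdkn1a, Ccng1 and Trp53inp1 had their lowest group mean with RAS present and ERF wild type, and Mdm2 and Phlda3 with RAS deleted and the knockout label. In 57 of the 70 steps between neighbouring group means the library ranges overlapped, so most of these orders are not resolved. Trp53inp1 and Sesn2 had no step without overlap.

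**Figure D1:**
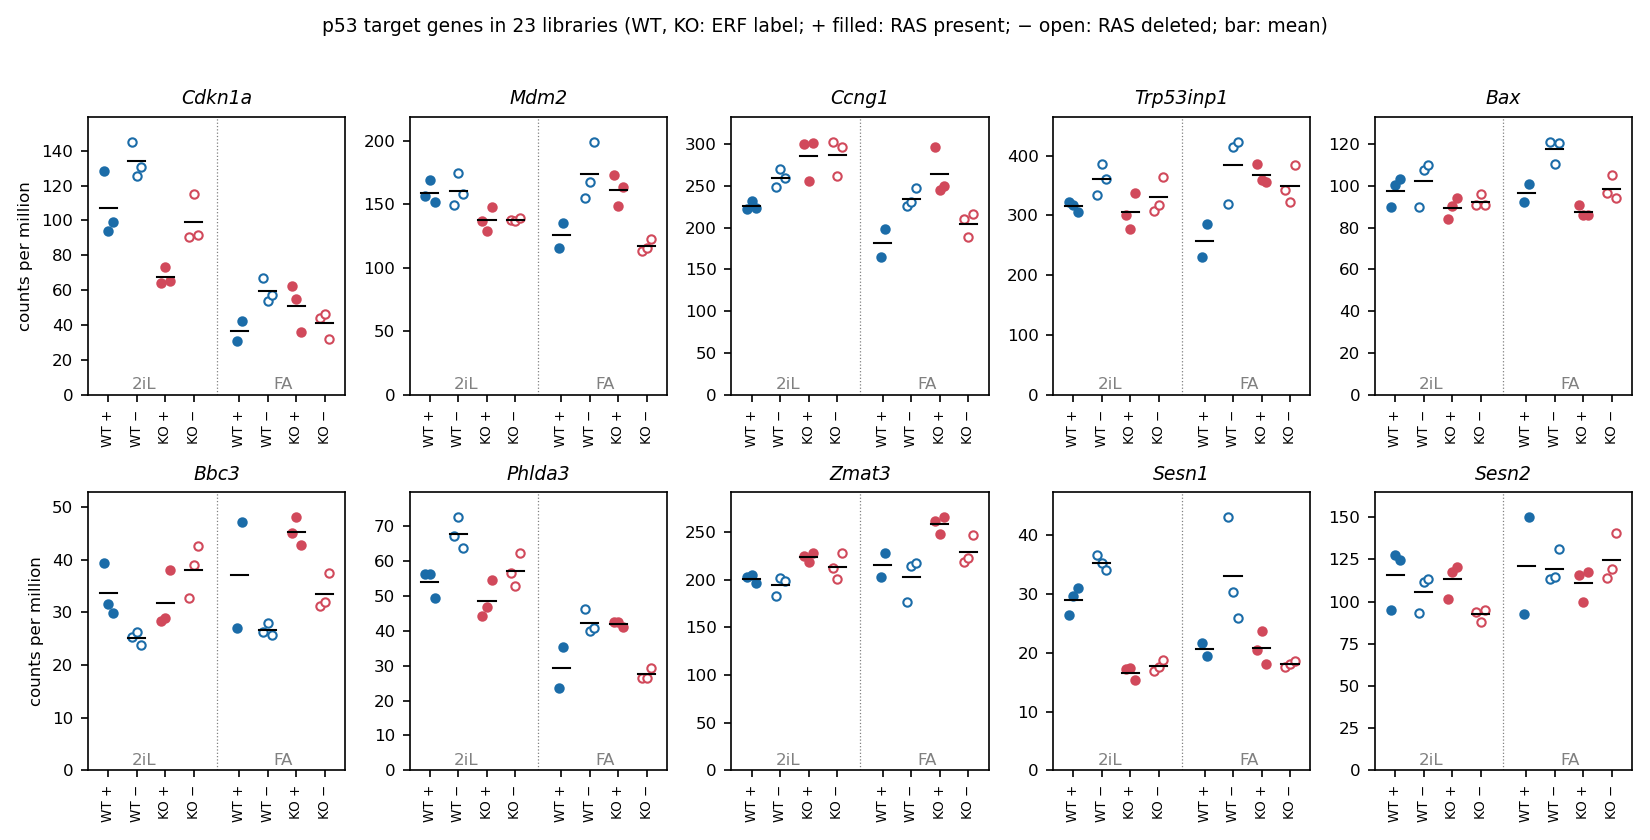
CPM of each of the 10 p53 target genes in every library, by ERF label (WT or KO), RAS label (+ present, filled; − deleted, open) and medium, with the group mean as a bar and axes starting at 0. In FA, Mdm2 goes from 115 and 135 to 155, 168 and 199 CPM with ERF wild type, and from 149 to 173 down to 113 to 122 CPM with the ERF knockout label.

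The question of the first comparison is how RAS deletion changed p53 targets in FA. With ERF wild type, 7 members rose and 1 fell on RAS deletion. The risers were Mdm2 and Ccng1, which act on p53 itself, the cell cycle inhibitor Cdkn1a, the apoptosis genes Bax, Phlda3 and Trp53inp1, and Sesn1. Their folds ran from 1.22 for Bax to 1.63 for Cdkn1a, so none reached 2-fold. Under the ERF knockout label, 0 rose and 4 fell: Mdm2, Ccng1, Phlda3 and Bbc3. In 6 of the 10, the 2 effects differed from each other when tested directly. The background of these counts is wide: with ERF wild type 41.3% of all genes tested passed (19.8% higher and 21.5% lower), under the knockout label 26.4% (13.7% lower), and for the difference 28% (13.6% lower). The median log2 change of the members was 0.42 with ERF wild type and -0.26 under the knockout label, against 0.00 for all genes tested in both. The library ranges of the compared groups were separate for 7 members with ERF wild type and 6 under the knockout label, against 53.1% and 46.9% of all genes. The 2 RAS comparisons share no library, but the opposite course was known from earlier results and is described here gene by gene. Calls are at an adjusted p under 0.05 from edgeR over all genes, and changes are log2 fold changes.

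Mdm2 (chromosome 10, 117688875 to 117710758, GRCm38, minus strand) stood at 115 and 135 CPM with ERF wild type and RAS present. With RAS deleted it stood at 155, 168 and 199 CPM, above both, a change of 0.47 (SE 0.10, adjusted p 0.000486). This call was lost in a fit of the compared groups with the replicate number as a block. Under the ERF knockout label Mdm2 went the other way, from 173, 149 and 163 CPM to 113, 116 and 122 CPM with no overlap, a change of -0.46 (SE 0.09, adjusted p 0.000482). The difference between the 2 effects was -0.94 (SE 0.13, adjusted p 1.12e-05). In CPM, rise and fall were thus of about the same size. In TPM, Mdm2 went from 57.8 and 61.1 to 79.5, 91.0 and 119.5 TPM with ERF wild type. Under the knockout label it went from 81.8, 59.8 and 77.0 to 65.1, 56.9 and 60.9 TPM, and these ranges overlapped. Ccng1 (chromosome 11, 40748552 to 40755311, minus strand) encodes cyclin G1, which brings a phosphatase to Mdm2. It stood at 165 and 198 CPM with RAS present and 225, 231 and 247 CPM with RAS deleted in ERF wild type, a change of 0.37 (SE 0.10, adjusted p 0.00383). Where ERF was labelled knockout it went from 297, 245 and 249 CPM to 209.8, 188 and 216 CPM, again with no overlap, a change of -0.37 (SE 0.09, adjusted p 0.00322). In TPM the ranges of Ccng1 under that label overlapped (79.9, 59.5 and 68.8 TPM, then 66.6, 55.0 and 62.8 TPM). The effects on Ccng1 differed by -0.74 (SE 0.13, adjusted p 0.000165). The rise of Ccng1 with ERF wild type rested on 1 library: without replicate 1 of the RAS present group it was 0.26 (adjusted p 0.0757).

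Cdkn1a (chromosome 17, 29090976 to 29100727, plus strand), whose promoter site is printed above, encodes p21, which inhibits cyclin-dependent kinases and stops the cell cycle. With ERF wild type it stood at 31.0 and 42.1 CPM with RAS present and 66.9, 54.1 and 57.0 CPM with RAS deleted, without overlap, a change of 0.70 (SE 0.21, adjusted p 0.0135). In cells labelled knockout the libraries overlapped, at 62.5, 55.0 and 35.8 CPM and 44.3, 46.6 and 32.0 CPM, and the change of -0.32 did not pass (SE 0.19, adjusted p 0.23). The difference of the effects was -1.02 (SE 0.28, adjusted p 0.0117). Cdkn1a had the largest rise of the members and the largest SE among them, and its calls depended on single libraries. Without replicate 1 of ERF wild type with RAS present the rise was 0.51 (adjusted p 0.157) and the difference -0.83 (adjusted p 0.0824). Without replicate 1 of ERF wild type with RAS deleted the rise was 0.61 (adjusted p 0.0515). Without replicate 3 of the knockout label with RAS present a fall there passed, at -0.52 (adjusted p 0.0304), as it did with no filter on low counts (-0.33).

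Among the apoptosis genes, Phlda3 and Trp53inp1 behaved differently from Bax and Bbc3. Phlda3 (chromosome 1, 135766119 to 135769136, plus strand) competes with the kinase Akt for membrane lipid. It went from 23.5 and 35.2 CPM to 46.3, 39.8 and 40.8 CPM with ERF wild type, a change of 0.53 (SE 0.13, adjusted p 0.00148). Under the knockout label it went from 42.5, 42.4 and 41.0 CPM to 26.4, 26.6 and 29.4 CPM, a change of -0.61 (SE 0.11, adjusted p 0.000324). No ranges overlapped, and the difference of -1.15 (SE 0.17, adjusted p 1.79e-05) was the largest of the 10 in the model of all libraries. Over the alternatives it ran from -1.49 to -0.83, and that of Mdm2 from -1.08 to -0.83, so the rank is not fixed. The rise was 0.28 (adjusted p 0.0827) without replicate 1 of ERF wild type with RAS present. Trp53inp1 (chromosome 4, 11156431 to 11174379, plus strand) encodes a nuclear protein that promotes p53 activity and autophagy. It stood at 230.2 and 285 CPM with RAS present and 318, 414 and 423 CPM with RAS deleted in ERF wild type, a change of 0.58 (SE 0.12, adjusted p 0.000323). In cells labelled knockout its values of 386, 359.6 and 355 CPM and 342, 323 and 384 CPM overlapped, with a change of -0.07 (SE 0.10, adjusted p 0.654). The effects still differed, by -0.65 (SE 0.16, adjusted p 0.00278).

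Bax (chromosome 7, 45461697 to 45466898, minus strand), which permeabilises the outer mitochondrial membrane, had the smallest rise of the 7. It stood at 92.1 and 101 CPM with RAS present and 121, 111 and 121 CPM with RAS deleted in ERF wild type, a change of 0.28 (SE 0.09, adjusted p 0.0104) that was 0.24 (adjusted p 0.0917) without replicate 1 of the RAS present group. Where ERF was labelled knockout it stood at 90.7, 86.3 and 86.0 CPM and 96.5, 105 and 94.2 CPM. That change of 0.17 (SE 0.08, adjusted p 0.105) did not pass although the ranges were separate, and the difference between the labels was -0.11 (SE 0.12, adjusted p 0.505). Bbc3 (chromosome 7, 16308393 to 16318205, plus strand) encodes Puma, a BH3-only protein that activates Bax, and was the only member to fall in both. In ERF wild type cells it stood at 27.1 and 47.2 CPM with RAS present and 26.4, 28.0 and 25.7 CPM with RAS deleted. The RAS present libraries spanned those with RAS deleted at their upper end, so the ranges overlapped, and the fall of -0.47 (SE 0.17, adjusted p 0.0364) rested on a single library of 47.2 CPM. Without it, replicate 2, the change was -0.01 (adjusted p 0.988). The call was also lost without replicate 1 (-0.46, adjusted p 0.0790) or replicate 3 (-0.44, adjusted p 0.0878) of the RAS deleted group. Under the knockout label Bbc3 went from 45.0, 48.1 and 42.9 CPM to 31.3, 31.9 and 37.5 CPM, a change of -0.43 (SE 0.16, adjusted p 0.0436). These ranges were separate, but the call was lost without any one of 5 of the 6 libraries, all but replicate 3 with RAS deleted (changes from -0.48 to -0.40, adjusted p 0.0504 to 0.125). With the effective length offset the fall of Bbc3 passed with neither label (-0.27, adjusted p 0.271, and -0.30, adjusted p 0.197), and with only the compared groups it did not pass with ERF wild type (adjusted p 0.149). The effects on Bbc3 differed by 0.03 (SE 0.23) with a 95% interval from -0.45 to 0.52.

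Sesn1 (chromosome 10, 41809935 to 41908424, plus strand) and Sesn2 (chromosome 4, 132492032 to 132510501, minus strand) encode sestrins, which restrain the growth kinase mTORC1. They did not move together. Sesn1 stood at 21.7 and 19.5 CPM with RAS present and 43.0, 30.4 and 25.8 CPM with RAS deleted in ERF wild type, a change of 0.68 (SE 0.15, adjusted p 0.000621), with a wide spread among the last 3. Where ERF was labelled knockout it stood at 20.4, 23.7 and 18.1 CPM and 17.5, 18.2 and 18.6 CPM, which overlap, with a change of -0.20 (SE 0.13, adjusted p 0.286). The effects differed by -0.88 (SE 0.20, adjusted p 0.0016). Sesn2 stood at 92.8 and 149.9 CPM and 113, 114 and 131 CPM in ERF wild type, and at 115, 99.6 and 118 CPM and 114, 119 and 141 CPM under the knockout label. All 4 groups overlapped, and neither change passed (log2 changes of -0.02 and 0.17). Zmat3 (chromosome 3, 32334792 to 32366014, minus strand), an RNA-binding protein that acts in splicing downstream of p53, also passed in neither. It stood at 203 and 228 CPM and 176, 215 and 217 CPM with ERF wild type, a change of -0.09, and at 262, 248 and 265 CPM and 218, 223 and 247 CPM under the knockout label, a change of -0.17 (SE 0.08, adjusted p 0.101). Without replicate 3 of the knockout label with RAS deleted that change passed, at -0.23 (adjusted p 0.0425), as it did in a fit of the compared groups alone (-0.18, adjusted p 0.0451).

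**Figure D2:**
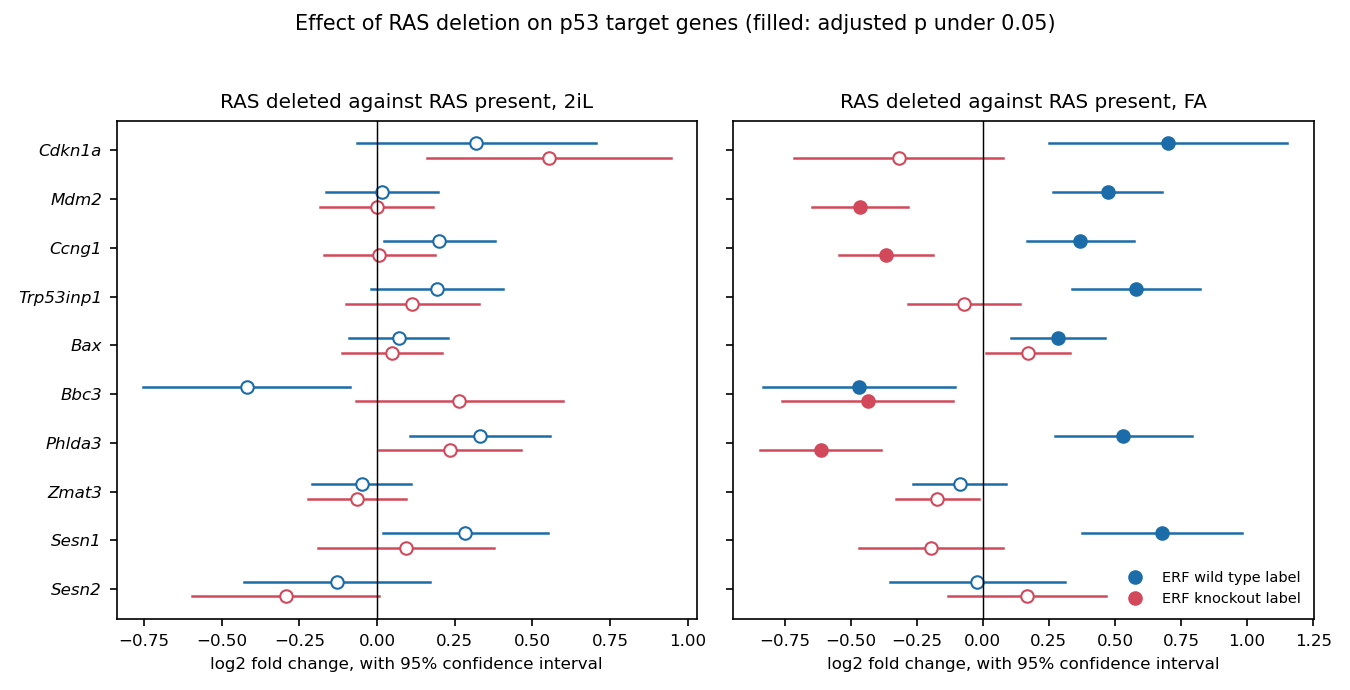
Log2 fold change of each p53 target gene on RAS deletion with its 95% confidence interval, in 2iL (left) and FA (right), by ERF label, with filled points for an adjusted p under 0.05. In FA the 2 labels lie on opposite sides of 0 for Mdm2, Ccng1 and Phlda3 with both filled, and in 2iL every point is open.

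The rises with ERF wild type in FA depended on the group of 2 libraries. Bulk RNA cannot tell a smaller number of expressing cells from less RNA in each cell. With only the compared groups in the fit 4 members rose, Cdkn1a, Mdm2, Trp53inp1 and Sesn1, against 13.7% of genes in that fit, and 0 fell. When replicate 1 of ERF wild type with RAS present was left out, 3 members rose (Mdm2, Trp53inp1 and Sesn1, against 17% of genes), and Bbc3 fell. The same 3 rose when all 4 libraries with raised chromosome 8 were left out, against 18.8% of genes, with changes of 0.45 for Mdm2, 0.57 for Trp53inp1 and 0.54 for Sesn1. Under the knockout label Bax (0.16, adjusted p 0.0310) and Zmat3 (-0.18, adjusted p 0.0155) passed as well in that fit. The falls of Mdm2, Ccng1 and Phlda3 under the knockout label passed in every alternative run, including each library left out. The difference between the labels passed in every alternative for Mdm2, Ccng1, Trp53inp1, Phlda3 and Sesn1. For Cdkn1a it was lost in 2 of them, without replicate 1 of ERF wild type with RAS present (above) and without the 4 libraries (-0.73, adjusted p 0.152). Without the 4 libraries the difference passed for Sesn2 as well (0.43, adjusted p 0.0312).

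In 2iL, where the cells stay naive and a MEK inhibitor is present, RAS deletion changed 0 of the 10 members in either line in the model of all libraries. The background there was low, with 5.7% of genes passing with ERF wild type and 1.31% under the knockout label. DESeq2 also called 0 in both. Phlda3 with ERF wild type came closest, with 56.2, 56.2 and 49.2 CPM and 67.3, 72.5 and 63.7 CPM and a change of 0.33 (SE 0.11, adjusted p 0.072). Cdkn1a stood at 128, 93.9 and 99.0 CPM and 145, 126 and 131 CPM with ERF wild type, a change of 0.32 (SE 0.18, adjusted p 0.335). In cells labelled knockout it stood at 64.2, 73.2 and 65.4 CPM and 90.6, 115 and 91.4 CPM, which do not overlap, a change of 0.55 (SE 0.19, adjusted p 0.156). Library ranges were separate for 5 members with ERF wild type and 2 under the knockout label, against 27.2% and 24.6% of all genes.

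The replicate numbers paired the 2iL libraries of both lines, and with the number as a block and only the 2 groups in the fit more members passed. With ERF wild type 6 passed, against 16.5% of genes in that fit: Cdkn1a (0.33), Ccng1 (0.20), Trp53inp1 (0.19), Phlda3 (0.33) and Sesn1 (0.29) were higher and Bbc3 (-0.41) was lower. Under the knockout label 4 passed, against 19.9% of genes: Cdkn1a (0.53, adjusted p 2.14e-08), Bbc3 (0.26) and Phlda3 (0.23) were higher and Sesn2 (-0.30, adjusted p 2.71e-04) was lower. Cdkn1a and Phlda3 were thus higher in both lines in 2iL in this fit. In the model of all libraries, without the block, the RAS effects of the 2 labels in 2iL differed for 0 members, against 1.57% of genes, and for 0 with DESeq2. Bbc3 came closest in that model, at 0.68 (SE 0.23, adjusted p 0.126), and its difference passed in 1 of 21 alternatives.

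The ERF label was compared next, within each RAS state. In FA with RAS present 4 members were higher under the knockout label, against 9.78% of genes (4.37% higher): Ccng1 by 0.54 (SE 0.10, adjusted p 0.00166), Trp53inp1 by 0.51 (SE 0.12, adjusted p 0.00806), Phlda3 by 0.52 (SE 0.13, adjusted p 0.0112) and Mdm2 by 0.37 (SE 0.10, adjusted p 0.0216). This comparison uses the group of 2 libraries, and it rested on 1 of them. Without replicate 1 of ERF wild type, 1 member (Ccng1, 0.44) passed higher, against 0.613% of genes. The call of Mdm2 was also lost without replicate 1 of the knockout label (0.32, adjusted p 0.0795), and without the libraries with raised chromosome 8, or with only the compared groups in the fit, 2 members passed higher (Ccng1 and Trp53inp1), against 1.78% and 1.98% of genes. Mdm2 was lost with the effective length offset too (0.39, adjusted p 0.0550), while Zmat3 passed with DESeq2 (0.27) and a stricter filter (0.28), and Cdkn1a with no filter (0.49). With RAS deleted in FA, 5 members were lower under the knockout label, against 42.8% of genes (21.3% lower): Sesn1 by -0.87 (SE 0.13, adjusted p 8.99e-06), Phlda3 by -0.62 (SE 0.11, adjusted p 7.65e-05), Mdm2 by -0.57 (SE 0.09, adjusted p 1.32e-05), Cdkn1a by -0.53 (SE 0.19, adjusted p 0.0286) and Bax by -0.25 (SE 0.08, adjusted p 0.0103). Mdm2 and Phlda3 thus stood higher under the knockout label before RAS deletion and lower after it. These comparisons share their libraries with the RAS comparisons above. Without replicate 3 of the knockout label with RAS deleted 3 passed, and the calls of Cdkn1a (-0.38, adjusted p 0.133) and Bax (-0.21, adjusted p 0.0553) were lost. That of Cdkn1a was also lost without replicate 1 of ERF wild type (-0.44, adjusted p 0.119) and without the 4 libraries (-0.43, adjusted p 0.124), where Ccng1 passed lower (-0.22, adjusted p 0.0410).

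In 2iL the ERF label went with a lower Sesn1 in both RAS states. It stood at 26.4, 29.7 and 31.0 CPM and 36.6, 35.3 and 34.0 CPM with ERF wild type, and at 17.2, 17.4 and 15.3 CPM and 16.9, 17.5 and 18.8 CPM under the knockout label, with no overlap between the labels. The change was -0.80 (SE 0.13, adjusted p 8.17e-05) with RAS present and -0.99 (SE 0.13, adjusted p 3.41e-06) with RAS deleted. With RAS present Cdkn1a was also lower, by -0.67 (SE 0.19, adjusted p 0.0119), and Ccng1 higher, by 0.34 (SE 0.09, adjusted p 0.00509), so 3 members passed, against 27.8% of genes. The call of Cdkn1a was lost without replicate 1 of ERF wild type (-0.50, adjusted p 0.0709) and without the 4 libraries (-0.50, adjusted p 0.0878). With RAS deleted Bbc3 was higher, by 0.60 (SE 0.16, adjusted p 0.00568), and Mdm2 lower, by -0.22 (SE 0.09, adjusted p 0.0483), so again 3 passed, against 39.1% of genes. The call of Mdm2 was near the threshold and was lost under another scaling (relative log expression), with DESeq2, and without any one of 5 of the 6 libraries, all but replicate 1 of ERF wild type (adjusted p 0.0791 to 0.219). It was also lost with no filter (adjusted p 0.0645), without the most abundant row (adjusted p 0.0608) and with the effective length offset, where it was -0.08 (adjusted p 0.591). Cdkn1a passed lower there with DESeq2 (-0.43), no filter (-0.42), the length offset (-0.48) and the compared groups alone (-0.41), and Phlda3 with the compared groups alone (-0.23) and without the 4 libraries (-0.24).

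Cdkn1a and Phlda3 were lower in FA than in 2iL in 3 of the 4 combinations of ERF and RAS labels. In ERF wild type cells and RAS present 6 members fell, against 49.5% of all genes passing (24.1% lower): Cdkn1a by -1.56 (SE 0.22, adjusted p 1.03e-05), Phlda3 by -0.88 (SE 0.13, adjusted p 3.79e-06), Sesn1 by -0.49 (SE 0.15, adjusted p 0.00749), Mdm2 by -0.34 (SE 0.10, adjusted p 0.00606), Ccng1 by -0.31 (SE 0.10, adjusted p 0.00988) and Trp53inp1 by -0.29 (SE 0.12, adjusted p 0.0411). With ERF wild type and RAS deleted Cdkn1a (-1.17) and Phlda3 (-0.68) fell and Bax rose (0.20), so 3 passed against 43% of genes. In cells labelled knockout with RAS deleted Cdkn1a (-1.27), Phlda3 (-1.06), Ccng1 (-0.49) and Mdm2 (-0.23) fell and Sesn2 rose (0.43), against 55.7% of genes. With RAS present under the same label the 4 that passed rose, against 46.9% of genes: Bbc3 by 0.52 (SE 0.16, adjusted p 0.0104), Trp53inp1 by 0.27 (SE 0.10, adjusted p 0.0376), Mdm2 by 0.23 (SE 0.09, adjusted p 0.0355) and Zmat3 by 0.21 (SE 0.08, adjusted p 0.0282). Several of these calls rested on 1 library. In ERF wild type cells and RAS present, leaving out replicate 1 in FA ended the calls of Mdm2 (-0.25), Ccng1 (-0.21) and Trp53inp1 (-0.16), leaving out replicate 2 in FA that of Sesn1 (-0.43), and leaving out any 2iL library that of Trp53inp1. Without the 4 libraries Mdm2 (-0.26), Ccng1 (-0.22) and Trp53inp1 (-0.15) did not pass either, Trp53inp1 was lost with the compared groups alone (adjusted p 0.0689), and Sesn1 with the effective length offset (-0.28, adjusted p 0.145). Of the 4 rises under the knockout label with RAS present, 0 passed without replicate 1 in 2iL, and Bbc3 was the 1 that passed without replicate 2 in 2iL or without replicate 1 or 3 in FA. Without replicate 2 in FA the call of Trp53inp1 was lost (0.27, adjusted p 0.0646), and with the effective length offset 0 of the 4 passed and Sesn1 did (0.52). Cdkn1a passed lower with no filter (-0.39). With RAS deleted, Sesn2 lost its call under that label without replicate 2 in 2iL (0.38) or replicate 3 in FA (0.33), and Mdm2 without replicate 1 or 3 in 2iL or replicate 1 in FA (adjusted p 0.0536 to 0.0659). Bax with ERF wild type lost it without replicate 1 in 2iL (0.11) or replicate 1 (0.17) or 3 (0.18) in FA, without the 4 libraries (0.08, adjusted p 0.374), with no filter (adjusted p 0.0874), with the length offset (adjusted p 0.0770) and with the compared groups alone (adjusted p 0.101). With the replicate block, where the numbers pair the libraries, Bax lost its call (0.21, adjusted p 0.0765), and Sesn1 (0.29, adjusted p 0.00878) gained one in the last comparison.

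A list of 31 other p53 targets moved down in FA under the knockout label and both ways with ERF wild type. On RAS deletion 10 rose and 7 fell with ERF wild type (median log2 change 0.17), and 0 rose and 20 fell under the knockout label (median -0.40). Of all genes, 19.8% rose and 21.5% fell with ERF wild type, and 13.7% fell under the knockout label, so the counts with ERF wild type lie closer to the background. In a direct test 17 of the 31 had a lower RAS effect under the knockout label than with ERF wild type and 1 a higher one (median difference -0.56), against 13.6% and 14.4% of all genes. The 1 higher gene was Dram1, whose counts are given below, and its call was lost without replicate 1 of ERF wild type with RAS present (adjusted p 0.122) and without the 4 libraries with raised chromosome 8 (adjusted p 0.0683). The estimates were up with ERF wild type and down under the knockout label for 19 of the 31 (61.3%) and for 6 of the 10 members, against 20.3% of all genes tested. Both lists were chosen with earlier results of these data known, so these shares describe them and test nothing. In FA with RAS present 14 of the 31 were higher under the knockout label, against 4.37% of all genes, and 0 lower. Without replicate 1 of ERF wild type that count was 3, against 0.613%.

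Of the 31, 10 passed on RAS deletion in FA with both labels, as did 14.7% of all genes tested. Of the 10, 5 rose with ERF wild type and fell under the knockout label, against 10.7% of all genes that passed both, and 5 were lower in both, near the 42.5% of those genes. The 5 that rose with ERF wild type and fell under the knockout label were Plk2, Susd6, Gtse1, Apaf1 and Tnfrsf10b. Plk2, a polo-like kinase of checkpoint responses, went from 24.5 and 32.9 CPM to 42.4, 43.3 and 41.3 CPM with ERF wild type, a change of 0.56 (SE 0.11, adjusted p 0.000145). Where ERF was labelled knockout it went from 61.1, 55.3 and 57.7 CPM to 23.1, 22.5 and 24.7 CPM, a change of -1.31 (SE 0.09, adjusted p 1.59e-09). No ranges overlapped, and the effects differed by -1.87 (SE 0.14, adjusted p 2.05e-09). Susd6 changed by 0.42 and -0.48. Gtse1, which moves p53 out of the nucleus, changed by 0.40 and -0.32. Apaf1, the core of the apoptosome, changed by 0.26 and -0.42, and Tnfrsf10b, a death receptor, by 0.32 and -0.60. The rises of Apaf1 and Tnfrsf10b were lost without replicate 1 of ERF wild type with RAS present (0.17, adjusted p 0.219, and 0.14, adjusted p 0.385). Apaf1 was also lost without replicate 1 of ERF wild type with RAS deleted (0.23, adjusted p 0.0583) and with no filter on low counts (0.23, adjusted p 0.0823). Both were lost with the effective length offset (adjusted p 0.0914 and 0.0817), and without the 4 libraries with raised chromosome 8 they were about as small as without replicate 1 (0.14, adjusted p 0.318, and 0.15, adjusted p 0.3001).

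The 5 that fell with both labels were Ddb2, Xpc, Fdxr, Psrc1 and Dram1. Ddb2 and Xpc recognise damaged DNA for nucleotide excision repair. Ddb2 went from 12.6 and 15.2 CPM to 8.06, 7.13 and 5.21 CPM with ERF wild type (-1.03, SE 0.15, adjusted p 4.59e-06) and from 13.98, 16.9 and 15.3 CPM to 10.2, 9.75 and 12.0 CPM under the knockout label (-0.53, SE 0.13, adjusted p 0.00362). Xpc changed by -0.33 and -0.40, the mitochondrial reductase Fdxr by -0.57 and -0.55, and the spindle gene Psrc1 by -0.38 and -0.38. Without replicate 2 of ERF wild type with RAS present, Xpc (-0.11, adjusted p 0.602), Fdxr (-0.35, adjusted p 0.118) and Psrc1 (-0.14, adjusted p 0.375) no longer passed there. Xpc was also lost without replicate 3 of ERF wild type with RAS deleted (-0.21, adjusted p 0.165). In a fit of the compared groups alone, Apaf1, Tnfrsf10b, Xpc, Fdxr and Psrc1 did not pass with ERF wild type (adjusted p 0.0770 to 0.208). Dram1, an autophagy gene, was near the limit of detection, with 61 and 15 counts with ERF wild type and RAS present and 2, 1 and 0 counts with RAS deleted, and 39, 40 and 70 counts against 13, 22 and 16 counts under the knockout label, so no fold is given. Its call under the knockout label was lost without replicate 1 with RAS deleted (adjusted p 0.0695) or replicate 3 with RAS present (adjusted p 0.0579).

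The smallest adjusted p among the 31 with ERF wild type belonged to Ak1, Btg2 and Ddb2. Ak1, adenylate kinase, went from 30.4 and 30.1 CPM to 70.9, 58.8 and 69.0 CPM (1.13, SE 0.10, adjusted p 2.47e-09) and stood at 31.6, 29.9 and 30.4 CPM and 28.6, 29.1 and 31.0 CPM under the knockout label (-0.05, SE 0.08, adjusted p 0.7). Btg2, an antiproliferative gene, went from 23.6 and 31.2 CPM to 57.5, 61.5 and 60.0 CPM (1.13, SE 0.12, adjusted p 7.03e-08) and stood at 44.8, 39.4 and 41.0 CPM and 48.7, 51.5 and 49.7 CPM (0.26, SE 0.10, adjusted p 0.0643). The knockout label rise of Btg2 passed in a fit of the compared groups alone (0.25, adjusted p 0.00873) and without the 4 libraries (0.25, adjusted p 0.0274). Both effects differed between the labels, by -1.18 (SE 0.13, adjusted p 3.28e-07) and -0.87 (SE 0.16, adjusted p 0.000176). Under the knockout label the smallest were Plk2, the repair nuclease Ercc5 and the desmosomal gene Perp. Ercc5 went from 71.9, 73.3 and 68.9 CPM to 45.3, 44.6 and 48.6 CPM (-0.63, SE 0.07, adjusted p 5.16e-07), and with ERF wild type it stood at 40.9 and 46.6 CPM and 44.7, 43.0 and 42.1 CPM (-0.01, SE 0.07, adjusted p 0.904). Perp went from 24.1, 20.9 and 21.8 CPM to 12.7, 9.47 and 12.6 CPM (-0.94, SE 0.11, adjusted p 2.97e-06), and with ERF wild type it changed by 0.10 (SE 0.13, adjusted p 0.583).

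**Figure D3:**
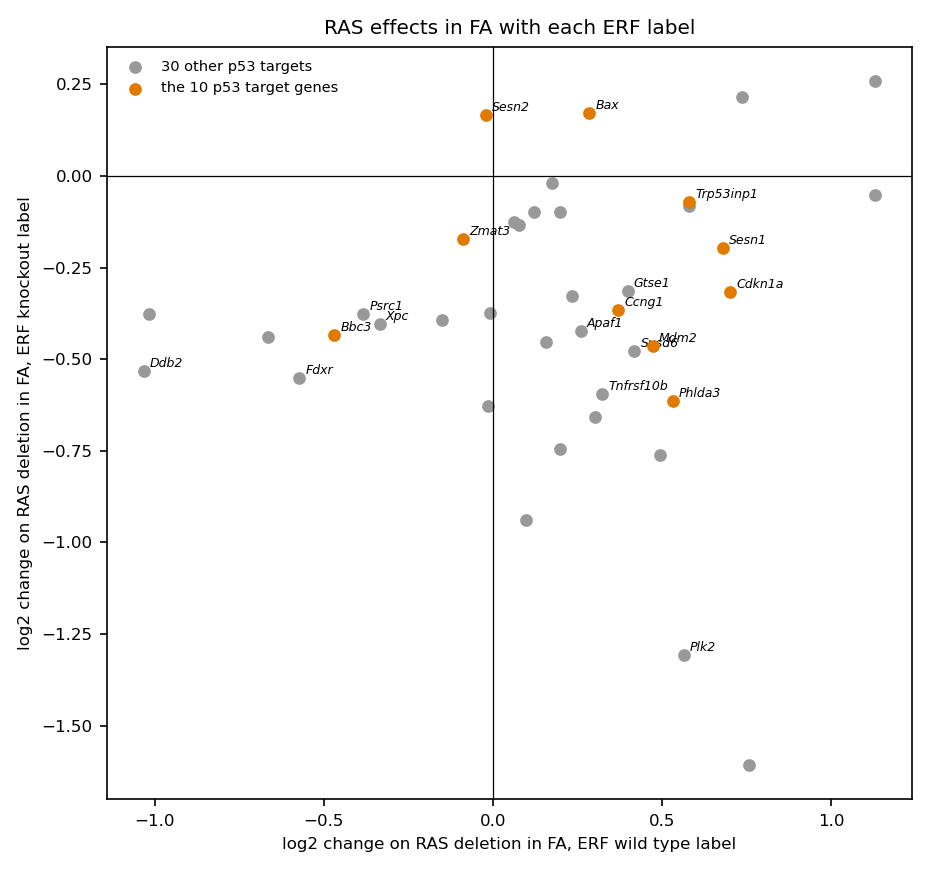
Log2 change on RAS deletion in FA with ERF wild type (x axis) against that under the ERF knockout label (y axis), for the 10 p53 target genes (orange) and the other p53 targets (grey), without Dram1, which had at most 2 counts in one group. The axes share no library, and 6 of the 10 and 19 of the plotted other targets lie at the lower right, up with ERF wild type and down under the knockout label.

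The transcript of p53 itself rose on RAS deletion in FA with both ERF labels. Trp53 stood at 144 and 143 CPM in FA in ERF wild type cells with RAS and at 260.1, 267 and 311 CPM with RAS deleted, a change of 0.96 (SE 0.15, adjusted p 2.5e-05). Where ERF was labelled knockout it also rose, from 102, 79.2 and 98.3 CPM to 150.5, 144 and 142 CPM, a change of 0.64 (SE 0.13, adjusted p 0.00116). Neither pair of ranges overlapped, and the difference of the effects did not pass (-0.32, SE 0.20, adjusted p 0.246). With RAS present in FA, Trp53 was lower under the knockout label, by -0.62 (SE 0.14, adjusted p 0.00971). The annotation also lists a Trp53 pseudogene, and the counting could have split reads between them. Mdm4, the partner of Mdm2 that blocks the p53 activation domain, followed the members more closely. It went from 147 and 136 CPM to 185, 235 and 201 CPM with ERF wild type (0.55, SE 0.10, adjusted p 6.89e-05). In cells labelled knockout it stood at 142, 167 and 155 CPM and 139, 136 and 154 CPM (-0.11, SE 0.08, adjusted p 0.354), and the effects differed by -0.66 (SE 0.13, adjusted p 0.000402).

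Of the 15 p53 regulators listed, 7 rose and 3 fell on RAS deletion in FA with ERF wild type, and 5 rose and 1 fell under the knockout label, while 41.3% and 26.4% of all genes passed in either direction. Trp73, the p53 paralog p73, went from 10.3 and 11.9 CPM to 29.4, 36.4 and 46.6 CPM with ERF wild type (1.76, SE 0.17, adjusted p 1.24e-08) and stood at 13.3, 12.9 and 15.5 CPM and 15.3, 13.8 and 14.7 CPM under the knockout label (0.07, SE 0.14, adjusted p 0.763). Its effects differed by -1.69 (SE 0.22, adjusted p 3.16e-06), a larger gap than for any of the 10 members. Rchy1, a ubiquitin ligase for p53 and a p53 target, rose with ERF wild type (0.41, SE 0.09, adjusted p 0.000863) and fell under the knockout label (-0.40, SE 0.08, adjusted p 0.000957). Usp7, a deubiquitinase that stabilises Mdm2, rose with both (0.34, SE 0.10, adjusted p 0.00779 and 0.48, SE 0.09, adjusted p 0.00041). The first of these was lost without replicate 2 of ERF wild type with RAS present (0.32, adjusted p 0.0653) or replicate 3 with RAS deleted (0.23, adjusted p 0.0548), and in a fit of the compared groups alone (0.35, adjusted p 0.0866).

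**Figure D4:**
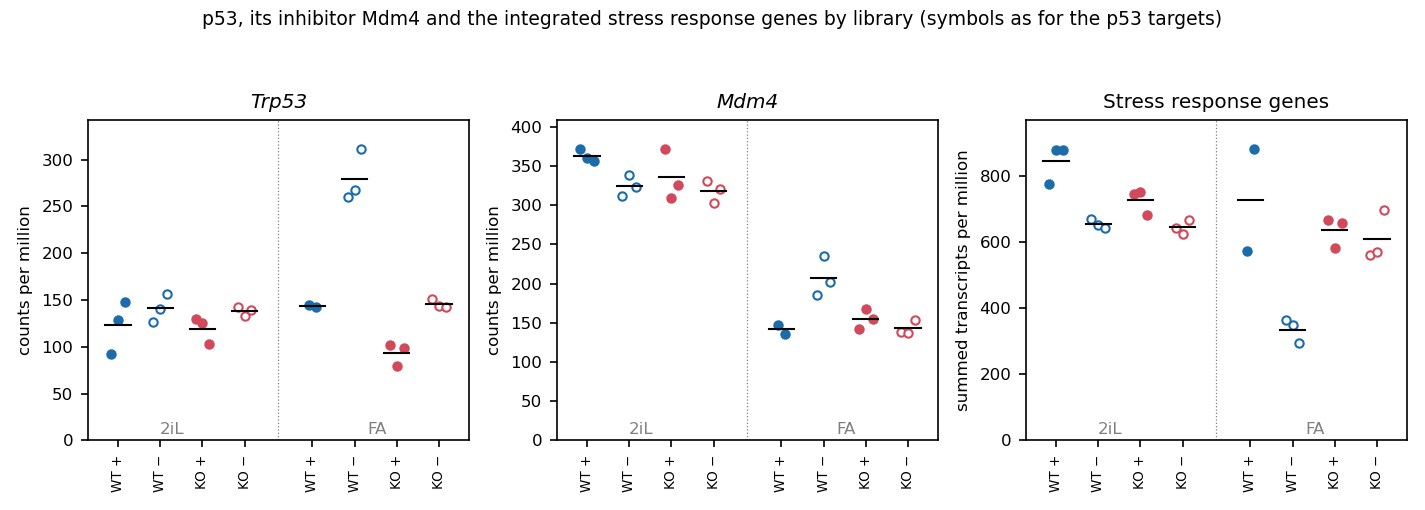
CPM of Trp53 and Mdm4 and the summed TPM of 14 integrated stress response genes in every library, with groups and symbols as in the plot of members, bars for group means and axes starting at 0. Trp53 rises on RAS deletion in FA with both ERF labels, and the stress response sum is lowest, at 294 to 363 TPM, with ERF wild type and RAS deleted in FA.

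Other gene lists were followed across the same conditions, in which 41.3% of all genes passed with ERF wild type and 26.4% under the knockout label. The integrated stress response is a programme driven by Atf4 that can raise Sesn2 and Bbc3 without p53. With ERF wild type in FA all 14 of its listed genes fell on RAS deletion, by a median of -1.60, among them Chac1 (-3.92, SE 0.30, adjusted p 7.44e-09) and Slc7a11 (-2.85, SE 0.29, adjusted p 3.34e-08). Their summed level was 573 and 881 TPM with RAS present and 294 to 363 TPM with RAS deleted. Of the RAS present libraries, that of the higher sum also had the higher CPM for Bbc3 and Sesn2, and for every other member except Sesn1. Under the knockout label 1 rose and 3 fell, among them Phgdh (-0.90) and Atf5 (-1.17), with sums of 583 to 667 TPM with RAS present and 562 to 698 TPM with RAS deleted. Of 18 G2/M and replication genes, which p21 lowers through the DREAM complex, 2 rose and 6 fell with ERF wild type, and 5 rose and 3 fell under the knockout label. Mcm3, a replicative helicase subunit, rose with both (0.48 and 0.51), as did Birc5 (0.31 and 0.31), which encodes survivin. The 8 of 18 that passed with ERF wild type are near the share of all genes. All 8 naive markers rose on RAS deletion in FA with ERF wild type, by a median of 2.75, so those cells also differed in state, while under the knockout label 4 rose and 2 fell. Of 6 primitive endoderm markers, 6 fell with ERF wild type (median -2.68), from sums of 16.04 and 33.9 TPM to 3.38 to 4.53 TPM, and 4 fell under the knockout label (median -1.82), from 19.4 to 22.6 TPM down to 4.36 to 7.33 TPM. Gata6, a transcription factor of that lineage, fell by 4.02 and 2.86 on the log2 scale. Of 6 trophoblast markers, 3 rose and 3 fell with ERF wild type and 2 rose and 2 fell under the knockout label, and their sum went from 9.88 and 11.6 TPM to 29.0 to 32.1 TPM and from 6.496 to 7.67 TPM to 8.60 to 10.2 TPM. Of 8 formative and primed epiblast markers, 2 rose and 5 fell with ERF wild type (median -0.80), and 4 rose and 0 fell under the knockout label (median 0.57). Of the 4 fibroblast markers tested, 3 fell with ERF wild type and 2 rose under the knockout label, at summed levels of at most 3.60 TPM. The part of each of these in the changes of the p53 targets was not tested.

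Over the 8 group means, the member closest to the mean profile of the other 9 was Mdm2 (Pearson r 0.86), followed by Trp53inp1 (0.68). Bbc3, Sesn2 and Zmat3 ran against it (-0.46, -0.45 and -0.39). The 5 other genes most like the members' mean profile, of 8569 compared, were Sulf2 (r 0.93), Tmem18 (0.92), Rbm38 (0.91), Pqlc3 (0.90) and Arap2 (0.90). These correlations are over 8 points that share a medium and a line structure and describe only these groups. The members' mean standardised level was highest in FA in the RAS deleted ERF wild type group (0.39) and lowest in the same line with RAS present in FA (-0.69), and the other 6 groups lay between -0.35 and 0.34.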

How the data were processed

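RNA of 23 libraries was rRNA-depleted and sequenced in 75-base read pairs by a stranded protocol, per the labels' protocols. The submitters' processing notes name bcl2fastq 2.20.0, fastp 0.20.0, Salmon and the build mm10. The authors deposited Salmon's estimated counts and TPM per gene symbol for each library, per the file headers. A deposited table of counts for the whole series held the same estimates rounded to whole numbers. The rounded counts were tested here with edgeR 4.0.16 (R 4.3.3, limma 3.58.1) by its quasi-likelihood test, with TMM scaling and filterByExpr, in 1 model of all groups with 14 comparisons. Genes passed at a Benjamini-Hochberg adjusted p under 0.05 over the 20372 genes tested. CPM values use the TMM-scaled library sizes.

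The 10 members and all lists were chosen with earlier results of these data known. Named from the other p53 targets were all that passed both RAS comparisons in FA and the 3 of smallest adjusted p in each. Named from the regulators were Trp53, Mdm4 and the 3 of smallest adjusted p in each RAS comparison in FA. Examples from other lists are among the 2 of smallest adjusted p. Likeness was ranked over genes of at least 10 CPM on log2(CPM + 1) group means. Replicates were not duplicates: their counts differed by 3.04 to 44.9 times the sampling variance over 22 pairs. Same-numbered libraries deviated together in 5 comparisons (every correlation of deviations from 0.103 to 0.380): RAS deletion in 2iL with either ERF label, and FA against 2iL except with ERF wild type and RAS present. This pairing comes from the data and not the labels. The model was tested on simulated data for RAS deletion in FA with ERF wild type (18878 genes), where 32% of genes changed by 0.5 on the log2 scale and 80% of those changed by 1 were recovered. Alternatives were DESeq2 1.42.0, other scalings, filters and sample sets, an effective length offset, a replicate block, and each library left out. Leaving out the 4 libraries with raised chromosome 8 was chosen after seeing the data. The level of the gene deleted under the RAS label is not reported here, so that label was not checked on it.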

Additional observations from a re-analysis of the deposited data

Results flagged for a closer look

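For 6 of the p53 target genes the effect of RAS deletion in FA differed between the ERF labels in a direct test of the difference (knockout label minus wild type, log2 scale, edgeR). The difference was -1.15 for Phlda3, -1.02 for Cdkn1a, -0.94 for Mdm2, -0.88 for Sesn1, -0.74 for Ccng1 and -0.65 for Trp53inp1. Of all genes tested, 28% passed this test and 13.6% with a lower effect under the knockout label. The call of Cdkn1a was lost without replicate 1 of ERF wild type with RAS present (-0.83, adjusted p 0.0824) and without the 4 libraries with raised chromosome 8 (-0.73, adjusted p 0.152). The test compares 2 libraries and 3 libraries with ERF wild type against 3 and 3 under the knockout label.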

How the results depend on the processing

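Shares in percent are of all genes passing in the same fit and direction. Other scaling, a stricter filter or leaving out the most abundant row changed at most 2 of 145 values each, and DESeq2 4. With no filter on low counts, 3 members passed for RAS deletion in 2iL with ERF wild type (5.17%), 2 under the knockout label (2.44%) and 1 for their difference (3.15%). With only the compared groups in the fit, FA with ERF wild type had 4 higher (13.7%) and 0 lower (13.3%), 2iL under the knockout label 2 (5.76%), and the ERF label 2 higher in FA with RAS present (9 other p53 targets, 1.98%) and 6 in 2iL with RAS deleted (51.1%). With the effective length offset, 0 fell in FA with ERF wild type (18.4%) and 1 passed for FA against 2iL under the knockout label with RAS present (41.2%). With the replicate block, 6 passed in 2iL with ERF wild type (16.5%) and 4 under the knockout label (19.9%). In FA with ERF wild type, where the numbers do not pair the libraries, 4 rose (Cdkn1a, Trp53inp1, Phlda3 and Sesn1, 14.9%) and 0 fell (12.8%), and Mdm2 (0.37, adjusted p 0.0618), Ccng1 (0.34, adjusted p 0.0995), Bax (0.27, adjusted p 0.188), Bbc3 (-0.39, adjusted p 0.103), Xpc (-0.20, adjusted p 0.493), Fdxr (-0.46, adjusted p 0.204), Rchy1 (0.41, adjusted p 0.104), Usp7 (0.24, adjusted p 0.297), Apaf1 (adjusted p 0.129) and Tnfrsf10b (adjusted p 0.0966) did not pass. In FA under the knockout label Cdkn1a (-0.31), Zmat3 (-0.18, adjusted p 0.0346) and Btg2 (0.25) passed with the block. For the ERF label with the block, 3 members (Cdkn1a, Ccng1 and Trp53inp1) and 9 other targets were higher in FA with RAS present (3.25%), and 5 members passed in 2iL with RAS deleted (49.6%). For FA against 2iL with ERF wild type and RAS present, 2 passed (34.5%). Without the 4 libraries of raised chromosome 8, the counts were 1 in 2iL with ERF wild type (3.36%) and 1 under the knockout label (5.34%), 3 higher in FA with ERF wild type (18.8%), and for the ERF label 2 higher in FA with RAS present (1.78%) and 6 in 2iL with RAS deleted (40.5%). Signs turned only for estimates that had not passed: Bbc3 in the FA difference (-0.0367 with length, -0.00604 with only the groups, -0.0251 with the block), Ccng1 in 2iL under the knockout label (-0.00705 with length, -0.00426 with no filter, -0.00600 with only the groups, -0.00469 with the block), Mdm2 there (0.00114 with DESeq2, 0.00116 with relative log expression, 0.0394 with length) and with ERF wild type (-0.0342 with length, -0.0120 with no filter), Mdm4 in FA under the knockout label (0.00881 with length) and Ercc5 in FA with ERF wild type (0.0162 with the block). Fits without 1 library each gave 3 to 7 higher (16.4% to 19.6%) and 0 to 1 lower (14.4% to 20.6%) in FA with ERF wild type, 3 to 6 for the ERF label in FA with RAS deleted (37.5% to 41.4%), 1 to 6 members and 3 to 16 other targets higher with RAS present (0.613% to 6.55%), and 0 to 4 for FA against 2iL under the knockout label with RAS present (41.2% to 42.8%). Estimates then ran from -0.44 to 0.36 for Bbc3 and -0.22 to 0.47 for Sesn2 in the FA difference, -0.31 to 0.38 for Sesn2, -0.15 to 0.0145 for Zmat3 and -0.0886 to 0.10 for Ercc5 in FA with ERF wild type, and in 2iL from -0.0476 to 0.0654 for Mdm2 with ERF wild type and from -0.0495 to 0.0530 for Mdm2, -0.0664 to 0.0616 for Ccng1 and -0.00113 to 0.0861 for Bax under the knockout label. The cause was not tested. Depth limited Dram1 among the named genes.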
